A study of Homo sapiens with 30 samples.

Results

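The genes of the CDK inhibitors were followed in A375 melanoma cells that had been given MLN4924. The set has 7 genes in 2 families: CDKN1A, CDKN1B and CDKN1C of the CIP/KIP family, and CDKN2A, CDKN2B, CDKN2C and CDKN2D of the INK4 family. Every probe set whose annotation holds exactly 1 symbol, and that symbol one of the 7, was taken. This gave 14 of the 54613 probe sets tested, for 6 of the 7 genes among 19775 genes with a probe set of their own. CDKN1C has 5 of the 14, CDKN2A has 3, CDKN2B and CDKN2D have 2 each, and CDKN1A and CDKN1B have 1 each. No probe set carried CDKN2C as its only symbol, and that gene was not analysed here.

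A375 is an established human melanoma line. MLN4924 (pevonedistat) inhibits the NEDD8-activating enzyme and so blocks the NEDD8 modification that cullin-RING ubiquitin ligases need for full activity. The 10 groups were A375 cells given 650 nM MLN4924 or 0.065% DMSO, the vehicle, and collected after 1, 2, 4, 8 or 24 h, with 3 Affymetrix HG-U133 Plus 2.0 arrays per group and DMSO arrays of its own at each time. The labels do not say whether the 3 arrays of a group came from separate cultures, so p-values measure the spread between these arrays, which may be technical.

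CDK inhibitors bind cyclin-dependent kinases, which drive the cell from one phase of the division cycle to the next. The CIP/KIP proteins (p21 from CDKN1A, p27 from CDKN1B and p57 from CDKN1C) bind kinase and cyclin together, whereas the INK4 proteins (p16 from CDKN2A, p15 from CDKN2B, p18 from CDKN2C and p19 from CDKN2D) bind CDK4 and CDK6 alone. CDKN2A also encodes ARF, which binds MDM2. Cullin-RING ligases mark p21, p27 and p57 for the proteasome, so protein and transcript of these genes need not move together. The arrays measure transcripts only.

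Signals are given after quantile normalization between arrays, on a linear scale. Changes are differences of group means of log2(signal + 32), MLN4924 minus DMSO, a scale on which changes of dim probe sets are compressed. A change was called at an adjusted p under 0.05 (limma, two-sided, Benjamini-Hochberg over all 54613 probe sets). The median normalized signal of all values was 36.5 (log2 value 6.10), and 8 of the 14 probe sets had a mean log2 value above it.

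The upstream sequences of CDKN1A, CDKN1B and CDKN2D are shown because these genes changed by 24 h in opposite directions and have a single promoter entry each. They are the 250 bases before the annotated start in RefSeq (GRCh38.p14), written 5′ to 3′ on the gene's own strand, with every GC box (GGGCGG or, on the other strand, CCGCCC) in capitals. CDKN1A lies at chr6:36678464-36678713 on the plus strand, CDKN1B at chr12:12717118-12717367 on the plus strand and CDKN2D at chr19:10568980-10569229 on the minus strand.
CDKN1A: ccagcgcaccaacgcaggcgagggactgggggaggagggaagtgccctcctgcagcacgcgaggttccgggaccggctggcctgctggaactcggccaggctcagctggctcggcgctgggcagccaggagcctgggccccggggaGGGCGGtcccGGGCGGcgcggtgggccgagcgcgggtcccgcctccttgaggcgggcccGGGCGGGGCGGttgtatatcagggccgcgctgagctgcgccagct
CDKN1B: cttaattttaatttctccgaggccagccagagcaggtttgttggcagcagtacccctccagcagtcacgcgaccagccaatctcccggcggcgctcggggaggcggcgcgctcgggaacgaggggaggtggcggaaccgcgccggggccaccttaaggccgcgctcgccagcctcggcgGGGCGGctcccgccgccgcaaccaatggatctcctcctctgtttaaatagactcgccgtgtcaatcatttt
CDKN2D: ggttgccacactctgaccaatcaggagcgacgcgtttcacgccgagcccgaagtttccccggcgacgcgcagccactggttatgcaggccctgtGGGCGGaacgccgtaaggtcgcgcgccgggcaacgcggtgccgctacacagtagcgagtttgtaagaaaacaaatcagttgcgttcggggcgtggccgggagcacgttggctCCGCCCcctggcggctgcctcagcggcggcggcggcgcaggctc

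The CDKN1A stretch holds 4 GC box matches, 2 of which overlap, the CDKN2D stretch 2 and the CDKN1B stretch 1. GC boxes are bound by SP1 and related factors, and 42.6% of the 35116 promoters in the table hold at least 1 match. The CCAAT box (CCAAT or ATTGG) was found 2 times before CDKN1B, 1 time before CDKN2D and not before CDKN1A, against 32.01% of all promoters with a match. The TATA motif, TATAAA on either strand, was in none of the 3 windows and in 10.7% of all promoters. The E-box CACGTG, the site of MYC and MAX, was also in none of the 3, and in 6.34% of all promoters. The half-site of the p53 consensus, searched on both strands, was also not in these windows (5.57% of promoters). The share of G and C was 76.4% before CDKN1A, 67.6% before CDKN2D and 64.4% before CDKN1B, against a median of 58.0% over all promoters. These matches are a description of the letters in the window only.

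Called changes were counted by family and time. At 24 h, CIP/KIP probe sets were called in 6 of 7 cases (1 higher, 5 lower in MLN4924), and INK4 probe sets in 3 of 7 (2 higher, 1 lower). Over all 54613 probe sets, 12.2% were called higher and 12.6% lower at that time. At 8 h, 1 of the 14 was called higher and 5 lower, all of them CIP/KIP, against 5.1% called higher and 4.64% lower over all probe sets. Most of the lower calls at both times were of CDKN1C, whose probe sets measure 1 gene and are not independent. Counted by gene, 3 of 6 were called either way at 8 h and 5 of 6 at 24 h. Over all genes, 7.52% were called higher and 6.07% lower at 8 h, and 15.2% and 17.2% at 24 h. The calls over all probe sets at 8 h split into 52.4% higher with quantile normalization, 41.7% with the signals as deposited and 73.5% after median centring of each array. At 4 h, 3 of the 14, from 2 genes, were called lower and none higher, against 0.943% and 1.11% of all probe sets. Leaving out any of the 6 arrays at 4 h, or DMSO 24 h replicate 3, brought the count of 3 probe sets to 1. No member was called at 1 h or 2 h by limma after adjustment, and none had an unadjusted p under 0.05 at either time. Only 0.0201% and 0.313% of all probe sets were called then, in either direction.

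The median change of the 14 probe sets was -0.04 at 24 h, beside 0.01 over all probe sets. It lay between 213586_at of CDKN2D (-0.05) and 236313_at of CDKN2B (-0.03), both dim and not called. Within the CIP/KIP family it was -1.62, set by the 4 CDKN1C probe sets that fell, which measure 1 gene and are not independent. Within the INK4 family it was 0.12.

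**Figure D1:**
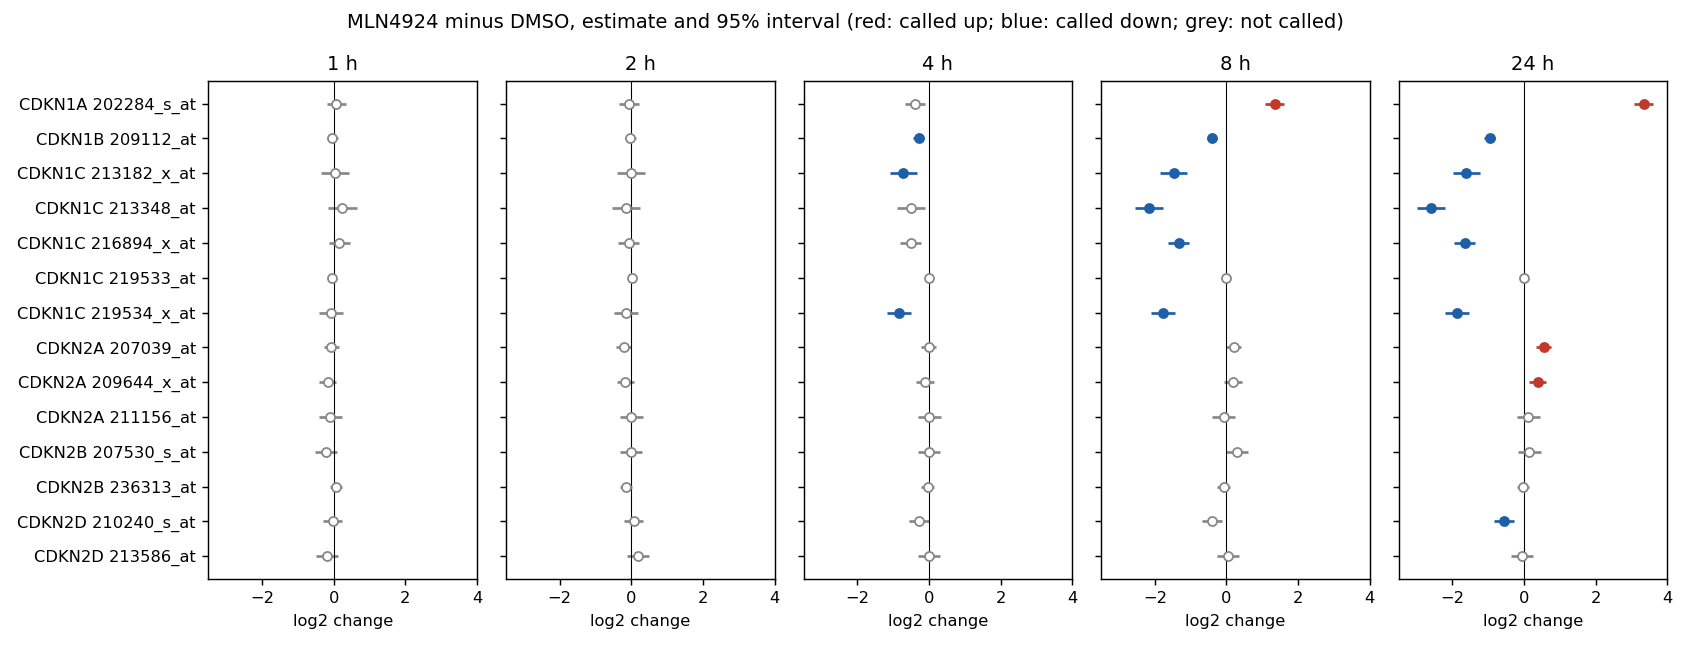
Change between MLN4924 and DMSO arrays for each of the 14 probe sets, by time. Each point is the log2 change with its 95% interval from limma (3 arrays against 3), filled where called; no filled point appears at 1 or 2 h, and at 24 h CDKN1A stands at 3.34 on the right while 4 CDKN1C probe sets stand between -2.60 and -1.62 on the left.

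CDKN1A, the gene of p21, which stops the cycle at G1 and is a classic target of p53, rose late and steeply. At 1 h its signals were 415, 366 and 403 on the DMSO arrays and 414, 395 and 443 on the MLN4924 arrays. At 2 h they were 434, 439 and 361 with DMSO and 365, 438 and 363 with MLN4924. At both times the groups overlapped, with changes of 0.08 and -0.08.

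At 4 h the DMSO arrays read 469.7, 393 and 345 and the MLN4924 arrays 338, 289 and 269.9. Every treated array lay below every vehicle array, but the change of -0.39 (SE 0.13) was not called (adjusted p 0.182). At 8 h the order had turned: the DMSO arrays read 360.3, 218 and 302 and the MLN4924 arrays 737, 789 and 813. At 24 h the DMSO arrays read 259, 315 and 355 and the MLN4924 arrays 3412, 3252 and 3529. All 3 treated arrays were far above the vehicle arrays at 8 and 24 h.

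The mean signal at 24 h was 3398 ± 139 (SD, n = 3) with MLN4924 and 309 ± 48.3 with DMSO, a ratio of 11.0. The log2 change was 1.34 at 8 h (SE 0.13, adjusted p 1.51e-07) and 3.34 at 24 h (SE 0.13, 95% interval 3.06 to 3.61, adjusted p 1.72e-15, limma), rank 10 among the increases of all 54613 probe sets. The effect differed between consecutive times by the test of the difference itself: it grew by 1.73 from 4 to 8 h (SE 0.19, adjusted p 1.51e-05) and by a further 2.00 from 8 to 24 h (SE 0.19, adjusted p 4.79e-08). These 2 tests share the 8 h arrays.

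In DMSO alone CDKN1A was lower at 24 h than at 1 h by 0.33 (SE 0.13), which was not called (adjusted p 0.128). From 1 to 8 h its change in DMSO was -0.41 (SE 0.13, adjusted p 0.203), also not called. The limma F test of DMSO at 2, 4, 8 and 24 h against 1 h did pass (adjusted p 0.0295), so the vehicle level was not flat. In MLN4924 alone CDKN1A rose by 2.93 from 1 to 24 h (adjusted p 2.98e-14). Ordered by mean level, the MLN4924 groups at 24 h and then at 8 h stood clear of all others. The ranges of the 5 groups that came next, MLN4924 at 1 h, DMSO at 2, 4 and 1 h and MLN4924 at 2 h, overlapped from each to the next. DMSO at 24 h, MLN4924 at 4 h and DMSO at 8 h came last and also overlapped. These are bulk samples, so a change in the share of cells that express a gene and a change in RNA per cell cannot be told apart.

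**Figure D2:**
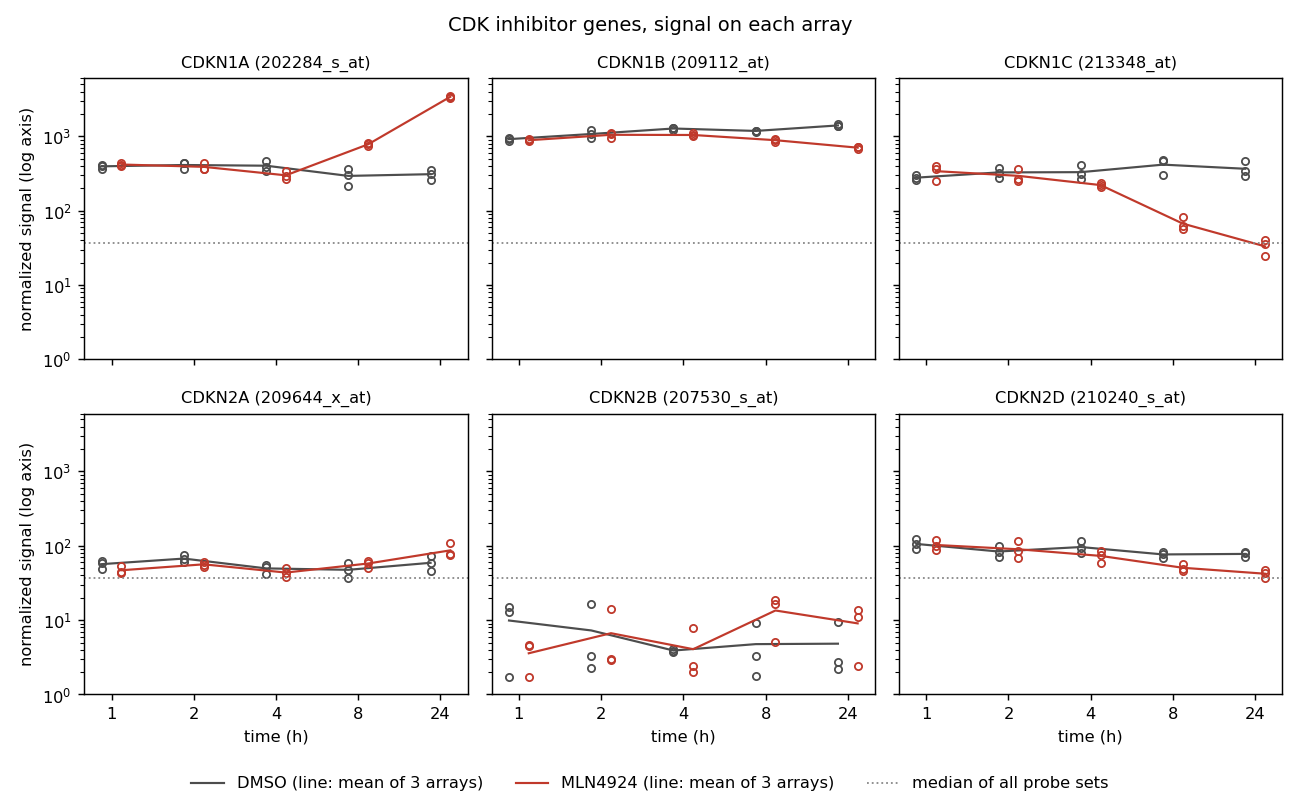
Normalized signal (log axis) against time for 1 probe set of each gene, the one with the highest mean; the 5 times are evenly spaced on the axis, not to scale. Points are arrays, lines join the means of 3 arrays, and the dotted line is the median of all values (36.5): MLN4924 arrays of CDKN1A reach 3252 to 3529 at 24 h, those of CDKN1C fall to 24.2 to 40.04, and CDKN2B stays below the median on every array.

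CDKN1B, the gene of p27, which holds cells at rest and is destroyed through SKP2 as they enter S phase, went the other way. Its transcript rose with time in vehicle cells and was below its 1 h level in treated cells only at 24 h. The MLN4924 means were 886, 1048, 1041, 886 and 703 at 1, 2, 4, 8 and 24 h. The DMSO means were 916 at 1 h, 1273 at 4 h and 1181 at 8 h. At 1 h its signals were 923, 953 and 872 with DMSO and 915, 858 and 884 with MLN4924. At 2 h they were 947, 1060.4 and 1215 with DMSO and 1087, 1109 and 947 with MLN4924, and at both times the groups overlapped.

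From 4 h the groups no longer overlapped. The DMSO arrays read 1295, 1292 and 1231 at 4 h, and the MLN4924 arrays 1002, 1096 and 1026. At 8 h they read 1157, 1194 and 1192 against 905, 912 and 842, and at 24 h 1365, 1458 and 1377 against 717, 671 and 721. The gap was widest at 24 h, where the treated mean was 703 ± 27.9 (SD, n = 3) and the vehicle mean 1400.2 ± 50.5, a ratio of 0.502.

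The log2 change of CDKN1B was -0.96 at 24 h (SE 0.07, adjusted p 2.11e-10) and -0.40 at 8 h (SE 0.07, adjusted p 0.000544, limma). After median centring of each array the 8 h change was -0.22 and no longer called (adjusted p 0.0593). At 4 h it was -0.28 (adjusted p 0.0418), a call that 18 of 42 alternatives lost, among them leaving out any of the 6 arrays at 4 h (adjusted p 0.0522 to 0.165). The effect deepened between 8 and 24 h (change of the effect -0.56, SE 0.10, adjusted p 0.00043).

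In DMSO alone CDKN1B rose by 0.60 between 1 and 24 h (SE 0.07, adjusted p 3.48e-06). It was the only 1 of the 14 probe sets called in that contrast, in which 11.9% of all probe sets were called either way. In MLN4924 alone it fell by 0.32 over the same span (change -0.32, adjusted p 0.00182). The difference at 24 h thus holds both a rise in vehicle cells and a fall in treated cells. DMSO at 24, 4 and 8 h held the highest levels, in that order, and MLN4924 at 24 h the lowest, clear of all other groups.

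CDKN1C, the gene of p57, an imprinted gene best known for its part in development, had the largest decreases of the 14 probe sets at 8 and 24 h. Its brightest probe set, 213348_at, gave signals at 1 h of 276, 259.7 and 299 with DMSO and 249.6, 366 and 404 with MLN4924, and at 2 h of 324, 379 and 278 with DMSO and 363, 249 and 269.8 with MLN4924. The groups overlapped at both times. At 4 h the DMSO arrays read 265, 312 and 412 and the MLN4924 arrays 209, 235 and 218, each below every vehicle array, with a change of -0.50 (SE 0.19) that was not called (adjusted p 0.266).

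At 8 h the 213348_at signals were 302, 469 and 476 with DMSO and 82.8, 56.8 and 61.3 with MLN4924. At 24 h they were 339, 466 and 293 with DMSO and 24.2, 35.1 and 40.04 with MLN4924, around the median of all probe sets. The treated arrays were lower than every vehicle array by a wide margin at both times. The means were 67.0 ± 13.9 against 416 ± 98.7 at 8 h, and 33.1 ± 8.11 against 366 ± 89.6 at 24 h (SD, n = 3). No fold is given, since the treated arrays at 24 h lay around the median of all values and no detection calls were used.

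The log2 change of 213348_at was -2.16 at 8 h (SE 0.19, adjusted p 2.43e-08), rank 6 among all decreases, and -2.60 at 24 h (SE 0.19, adjusted p 1.31e-10), rank 44 (limma). Over the alternatives the 24 h change ran from -3.43 to -2.42. The effect deepened between 4 and 8 h (change of the effect -1.66, SE 0.27, adjusted p 0.00251), the rank 3 decrease in that contrast. Between 8 and 24 h the change of the effect was -0.43 (SE 0.27, 95% interval -0.996 to 0.13, adjusted p 0.388), which was not called. Within MLN4924 alone, however, 213348_at was lower at 24 h than at 8 h (change -0.60, SE 0.19, adjusted p 0.0312). That call was lost without MLN4924 replicate 1 or 3 at 8 h or replicate 1 or 2 at 24 h (adjusted p 0.0542 to 0.148). The probe set 216894_x_at was also lower at 24 h than at 8 h in MLN4924 (change -0.61, adjusted p 0.00354). In the same limma contrast 213182_x_at (-0.20, adjusted p 0.589) and 219534_x_at (-0.27, adjusted p 0.33) were not called, so the CDKN1C probe sets differed here. At these low signals the added 32 compresses a further fall. In DMSO alone 213348_at did not pass the test between 1 and 24 h (0.34, SE 0.19, adjusted p 0.331). In the order of levels MLN4924 at 4, 8 and 24 h came last, each clear of the next, and the 7 groups above them overlapped from each to the next.

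Among the 14 probe sets, 2 were called for the change of the effect from 4 to 8 h (CDKN1A and 213348_at), against 0.696% of all probe sets. For the change from 8 to 24 h 2 were called (CDKN1A and CDKN1B), against 12.4%.

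Of the other CDKN1C probe sets, 3 fell as well. All 3 carry the _x_at suffix, which marks probe sets whose probes can also match other sequences. For 219534_x_at the MLN4924 arrays read 63.4, 100.4 and 98.1 at 4 h, 16.1, 45.2 and 31.5 at 8 h and 17.6, 29.0 and 12.6 at 24 h. The DMSO arrays read 165, 173 and 197 at 4 h, 202, 144 and 202 at 8 h and 133, 154 and 183 at 24 h. No treated array reached a vehicle array at these times, and the log2 changes were -0.83 (adjusted p 0.00402), -1.78 (3.41e-08) and -1.87 (2e-09). The 4 h call was lost with log2(signal + 1) (adjusted p 0.0738) and with only the 6 arrays compared (0.0766).

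For 216894_x_at the MLN4924 arrays read 31.9, 50.7 and 23.5 at 8 h and 19.3, 8.20 and 8.27 at 24 h, while the DMSO arrays read 150.2, 128 and 129 and then 95.3, 98.7 and 126. For 213182_x_at the MLN4924 arrays read 10.5, 43.0 and 6.32 at 8 h and 9.65, 22.7 and 3.63 at 24 h, while the DMSO arrays read 96.4, 122 and 102 and then 100.5, 96.2 and 106. The treated arrays varied several-fold among themselves here, at signals around or below the median, yet none overlapped the vehicle arrays. The changes of 216894_x_at were -1.33 at 8 h (adjusted p 5.39e-07) and -1.66 at 24 h (2.08e-09), and those of 213182_x_at were -1.48 (4.79e-06) and -1.62 (1.96e-07). At 4 h 213182_x_at was called lower (-0.72, adjusted p 0.0408), with MLN4924 arrays at 35.9, 52.4 and 58.4 and DMSO arrays at 85.5, 100.3 and 115. Leaving out any of the 6 arrays at 4 h ended that call (adjusted p 0.0558 to 0.203). For 216894_x_at the 4 h change was -0.51 (adjusted p 0.0739, not called).

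The fifth probe set, 219533_at, showed nothing of this. Its signals lay between 0.985 and 3.70 on all 30 arrays, its mean level was at percentile 1.24 of all probe sets, and its change at 24 h was -0.0025 (adjusted p 0.982). At such a level a fall could not be measured.

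The probe sets of a gene were set against each other on the same arrays with an exact two-sided permutation test that exchanged drug and vehicle labels within each time (14 pairs, Benjamini-Hochberg over them; the quantity is the change averaged over the 5 times). The pairs with 219533_at, whose change is held near 0 by its level, are not described. They stayed in the adjustment, however, and held its smallest p-values. Among the 4 CDKN1C probe sets that fell, 219534_x_at had a lower averaged change than 216894_x_at (difference 0.26, adjusted p 0.00306). Its averaged change was also lower than that of 213182_x_at (0.19, permutation p 0.0176 before adjustment and 0.041 after it). An adjustment without the 219533_at pairs was not run, so no difference is drawn from this smaller gap. The gap to 216894_x_at was 0.22 at 1 h, when neither was called, and 0.21 at 24 h. The average thus does not measure the fall alone. At 24 h the change of 213348_at was below that of 219534_x_at (difference -0.72), while their averaged difference was -0.09 (adjusted p 0.582). The deeper fall of 213348_at than of 216894_x_at averaged 0.35 and missed the threshold (difference -0.35, adjusted p 0.0526). On the log2(signal + 32) scale such gaps depend on brightness, since the added 32 compresses the dimmer probe sets more.

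**Figure D3:**
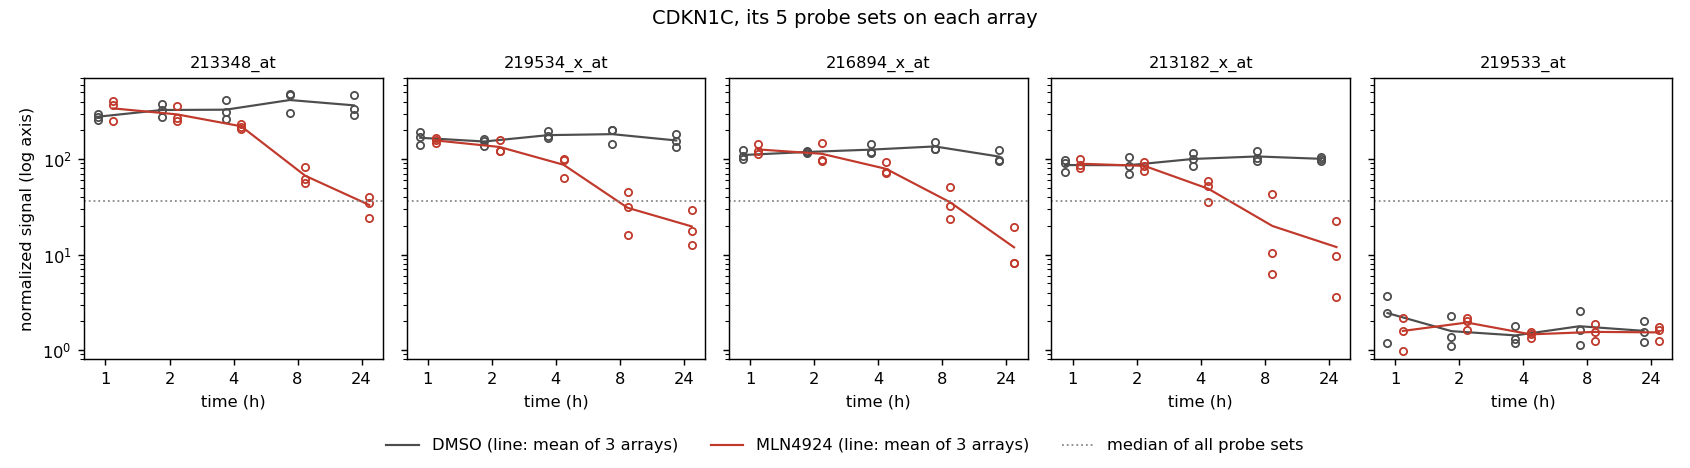
Normalized signal (log axis) of the 5 CDKN1C probe sets on each array against time (times evenly spaced, not to scale); lines join means of 3 arrays and the dotted line is the median of all values, 36.5. In 4 probe sets the MLN4924 arrays leave the DMSO arrays at 4 h and lie far below them at 8 and 24 h, and 219533_at stays between 0.985 and 3.70.

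CDKN1C lies in an imprinted domain whose noncoding RNA KCNQ1OT1 restrains its neighbours on the paternal chromosome. The imprinted gene PHLDA2, separated from CDKN1C by 1 protein-coding gene, fell by 1.54 at 24 h (change -1.54, SE 0.11, adjusted p 4.85e-11). At 8 h its change was -0.43 (adjusted p 0.0106), a call lost with each array centred on its median (-0.21, adjusted p 0.18). KCNQ1OT1 itself was lower by 1.07 at 8 h (change -1.07, SE 0.30, adjusted p 0.0229) and its change at 24 h was -0.99 (SE 0.30, adjusted p 0.0158). KCNQ1, the potassium channel gene next to CDKN1C, was dim (mean signal 12.7) and not called at 24 h (0.21, adjusted p 0.501). KCNQ1OT1 runs antisense to KCNQ1, and the files do not give the strand of the probes.

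Of the INK4 genes, CDKN2A was measured by 3 probe sets, and the files do not say which of them detect the p16 or the ARF transcript. With 209644_x_at, the brightest, the signals ran from 36.5 to 108 over all arrays. At 24 h the DMSO arrays read 58.5, 72.3 and 46.2 and the MLN4924 arrays 74.1, 77.8 and 108, so that the groups touched without overlapping. The change was 0.38 (SE 0.12, adjusted p 0.0166). The limma F test of MLN4924 against DMSO at any of the 5 times was not passed by 209644_x_at (adjusted p 0.0601). Every other member probe set called at some time passed it (highest adjusted p 0.00558, 210240_s_at of CDKN2D). Leaving out DMSO replicate 3 (0.28, adjusted p 0.126) or MLN4924 replicate 3 (0.26, adjusted p 0.146) at 24 h ended the call. So did the signals as deposited (adjusted p 0.061) and a fit to only the 6 arrays (adjusted p 0.13).

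The dimmer CDKN2A probe set 207039_at read 16.04, 25.1 and 23.3 with DMSO and 45.4, 50.3 and 42.7 with MLN4924 at 24 h. These groups were well apart, and the change of 0.55 (SE 0.10, adjusted p 0.000155) kept its call in all 40 alternatives. Its mean signal of 28.2 lay below the median of all values. In treated cells alone it rose by 0.38 from 1 to 24 h (adjusted p 0.00695). The remaining probe set, 211156_at (mean signal 8.86), was not called at any time, with a change at 24 h of 0.12 (adjusted p 0.701). The pairs of CDKN2A probe sets did not pass the permutation test against each other (adjusted p 0.329, 0.329 and 0.716). At 24 h the difference between 207039_at and 211156_at was 0.43 as a value.

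In the order of levels every group of 209644_x_at overlapped the next. Before 24 h no CDKN2A probe set was called. At 2 h every MLN4924 array of 209644_x_at lay below every DMSO array, 60.5, 52.4 and 55.9 against 66.1, 74.4 and 61.2, with a change of -0.17 (adjusted p 0.688). MTAP, the methylthioadenosine phosphorylase gene next to CDKN2A, fell by 0.42 at 24 h (change -0.42, adjusted p 0.000114), with means of 755 and 1027.

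CDKN2B, whose product p15 is induced by TGF-beta in many epithelial cells, was at the bottom of the scale in these cells. Its probe set 207530_s_at ranged from 1.73 to 18.8 and 236313_at from 0.347 to 10.4, all below the median of 36.5. Neither was called at any time. At 8 h 207530_s_at had treated values of 5.04 to 18.8 and vehicle values of 1.79 to 9.21, which overlapped, with a change of 0.30 (95% interval -0.01 to 0.61, adjusted p 0.274). The noncoding RNA CDKN2B-AS1 (mean signal 1.58) and DMRTA1 (2.87), its neighbours, were as dim and not called at 24 h.

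CDKN2D, the gene of p19-INK4d, whose level is known to swing with the cell cycle, fell late. For 210240_s_at the DMSO arrays read 68.5, 82.9 and 77.9 at 8 h and 82.9, 70.5 and 79.6 at 24 h. The MLN4924 arrays read 49.2, 57.3 and 45.3 at 8 h and 36.9, 42.5 and 46.9 at 24 h. Treated and vehicle arrays did not overlap at either time. The change was -0.57 at 24 h (SE 0.13, 95% interval -0.84 to -0.29, adjusted p 0.00213), with means of 42.1 ± 4.996 and 77.7 ± 6.45 (SD, n = 3).

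At 8 h the CDKN2D change of -0.39 (SE 0.13) missed the threshold (adjusted p 0.0669) and passed it in 5 alternatives, the lowest with the signals as deposited (-0.51, adjusted p 0.0112). At 4 h the groups overlapped (-0.28, adjusted p 0.429). In MLN4924 alone 210240_s_at fell by 0.86 from 1 to 24 h (change -0.86, adjusted p 2.5e-05). In DMSO alone its change was -0.32 (adjusted p 0.136). The other CDKN2D probe set, 213586_at, was dim (mean signal 5.73) and was not called at any time. The pair did not pass the permutation test against each other (adjusted p 0.0669), and at such a level a fall of 213586_at could hardly be measured.

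In treated cells alone, from 1 to 24 h, 9 of the 14 probe sets were called, 3 higher and 6 lower, against 10.5% higher and 10.9% lower over all probe sets. The 3 that were higher were CDKN1A and the CDKN2A probe sets 207039_at and 209644_x_at. The 6 that were lower were CDKN1B, the 4 CDKN1C probe sets above and 210240_s_at of CDKN2D.

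**Figure D4:**
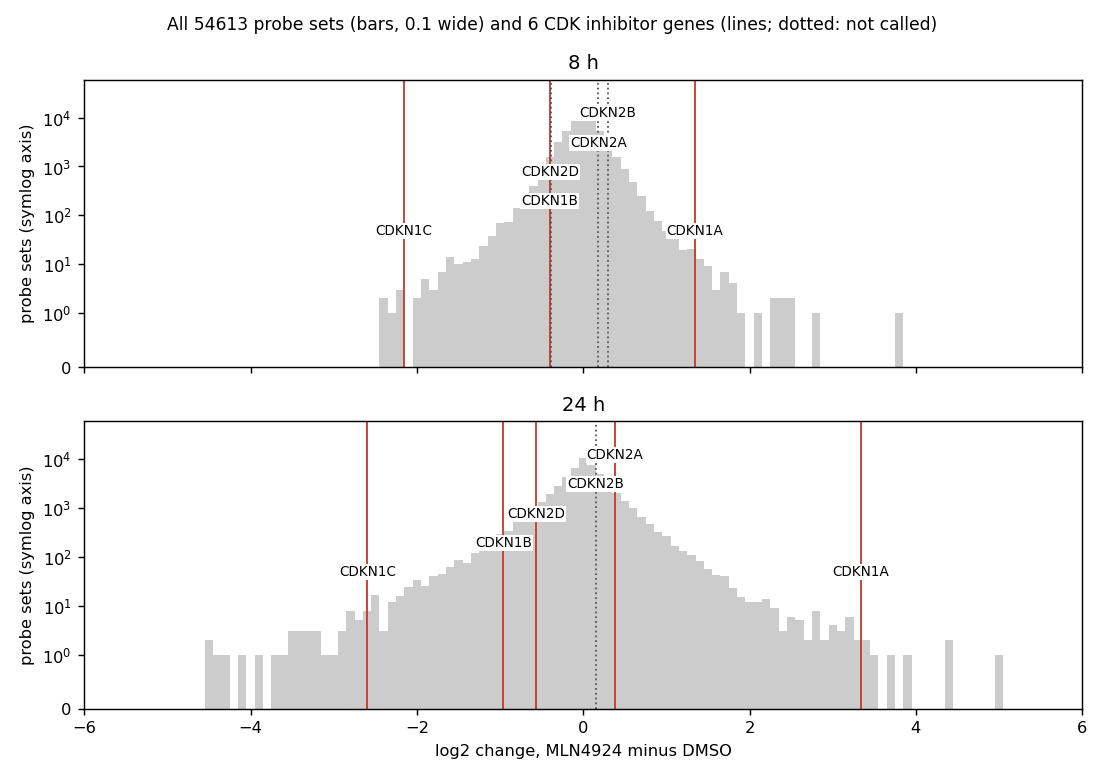
Distribution of the log2 change (MLN4924 minus DMSO) over all 54613 probe sets at 8 h and 24 h, in bars 0.1 wide with a symmetric log count axis; vertical lines mark the brightest probe set of each of the 6 genes, dotted where not called. At 24 h CDKN1A (3.34) lies in the upper tail and CDKN1C (-2.60) in the lower tail, whereas CDKN2A (0.38) and CDKN2B (0.15) lie in the bulk.

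The genes whose level followed that of a member most closely were named by Pearson's r over the 10 group means of the log2 values, among 12097 genes above the median. The 10 points share the same arrays with the member, and for CDKN1A the treated group at 24 h stood far above the other 9 points. For CDKN1A these genes were TRAF4 (r 0.991), RNF20 (0.989), AEN (0.986), LINC00294 (0.984) and PHF20 (0.984). Their changes at 24 h ran from 0.49 (RNF20) to 1.46 (AEN), all smaller than the 3.34 of CDKN1A. AEN encodes a nuclease of apoptosis and RNF20 a histone ubiquitin ligase.

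For CDKN1B the closest were IFFO1 (r 0.953), MEOX2 (0.939), CDIPT (0.939), MXD3 (0.928) and FBXO10 (0.927). For CDKN1C they were FLRT3 (0.985), AQP3 (0.984), LINC01116 (0.983), NFKB1 (0.979) and NFATC2 (0.978). NFATC2, a transcription factor controlled by calcineurin, had changes of -1.94 at 8 h and -3.42 at 24 h, and AQP3, a water and glycerol channel, of -1.05 and -1.79. For CDKN2A they were ZNF182 (0.957), NTAQ1 (0.939), ZBTB5 (0.932), MMS19 (0.929) and ELOB (0.928). Its probe set here, 209644_x_at, passed neither limma F test (MLN4924 at any time, adjusted p 0.0601, and DMSO over time, 0.262). For CDKN2D the closest were MCPH1-DT (0.981), UCN2 (0.974), NAP1L3 (0.972), ANTXR2 (0.971) and H1-10 (0.971). How high r would reach by selection alone, among 12097 genes over 10 points, was not tested.

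Cyclin-dependent kinases, cyclins and MNAT1 were followed as a list of 16 genes, each by its brightest probe set. At 24 h 5 rose and 6 fell, where 15.2% of all 19775 genes were called higher and 17.2% lower. The largest falls were those of CCNB1, with means of 2769 in DMSO and 753 in MLN4924 (change -1.84, SE 0.06, adjusted p 1.22e-17), CCNB2 (-1.52), CDK1 (-1.26) and CCNA2 (-0.97). Falls of CDK4 (-0.21) and CCNH (-0.28) were called but lost with each array centred on its median, and that of CCNH also with the signals as deposited. The 5 rises were those of CCNE1 (0.75), CDK7 (0.66), the kinase that activates the others, CDK2 (0.48), CCNE2 (0.40) and CCND1 (0.32). CDK6 (0.07), CCND2 (-0.03), CCND3 (-0.12), CCNA1 (0.09) and MNAT1 (-0.05) were not called. The median change of the list was -0.04, beside 0.0027 over all genes.

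At 8 h the same list had 4 genes higher and 1 lower, against 7.52% and 6.07% of all genes. CCND1, the main partner of CDK4 and CDK6, rose by 1.03 (SE 0.10, adjusted p 6.89e-08), CCNE1 by 0.92, CDK1 by 0.53 and CCNE2 by 0.48. CDK1 was thus higher at 8 h and lower at 24 h. CCNB2 was lower by 0.32 (change -0.32), a call lost with each array centred on its median (-0.10, adjusted p 0.42). CCND1 (0.66), CCNE1 (0.56) and CCNE2 (0.32) had risen by 4 h, when CDKN1A was not yet higher.

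Of 15 genes of the RB and E2F family, which act downstream of these kinases, 4 rose and 3 fell at 24 h (median 0.07), against 15.2% and 17.2% of all genes, a share of falls near the background. E2F7, a repressor of the family, rose by 1.78 (SE 0.08, adjusted p 8.81e-15), TFDP2 by 0.33, E2F2 by 0.35 and E2F6 by 0.25. RBL2, the pocket protein p130, fell by 1.51 (change -1.51, SE 0.16, adjusted p 4.4e-08), RB1 by 0.86 (change -0.86, adjusted p 6.17e-05), and TFDP1 was at -0.25. The calls of E2F2 (adjusted p 0.073) and TFDP1 (0.0542) were lost with the signals as deposited, and that of TFDP1 also when arrays were centred. At 8 h 4 rose (E2F7, E2F6, E2F2 and E2F3) and none fell, against 7.52% and 6.07% of all genes.

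Of 20 genes of ubiquitin ligases that act on the inhibitors or on their regulators, 9 rose and 3 fell at 24 h (median 0.16), against 15.2% and 17.2% of all genes. MDM2, the ligase of p53 and itself a p53 target, rose by 2.94 (SE 0.10, adjusted p 4.13e-17), and DTL, the receptor that brings p21 and CDT1 to CUL4, by 1.54 (SE 0.08, adjusted p 1.11e-13). FBXW7, the receptor for cyclin E, rose by 0.92. SKP2 (0.33) and CKS1B (0.43), which together recognise p27, rose as well, and CUL1 (0.12) and SKP1 (0.01) were not called. CDC27 (-1.32) and CDC20 (-0.98) of the anaphase-promoting complex and RBX1 (-0.64), the RING subunit of cullin ligases, fell. At 8 h 6 rose and 1 fell, against 7.52% and 6.07% of all genes. After median centring of each array, 10 rose and 0 fell. The fall, of MDM4 (-0.46), was the call lost there (adjusted p 0.113), and at 24 h MDM4 was higher by 0.57.

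**Figure D5:**
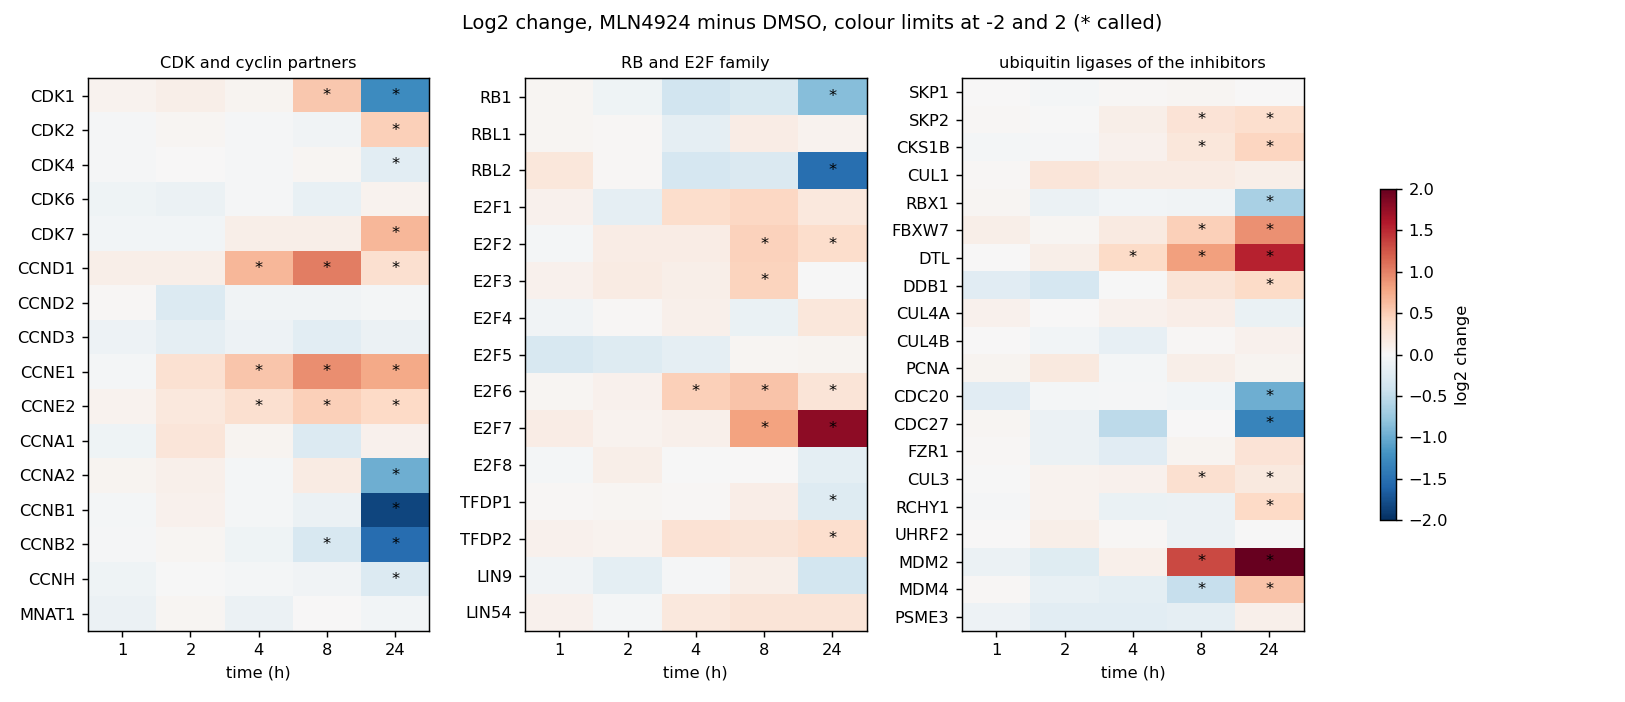
Log2 change (MLN4924 minus DMSO) at each time for the listed CDKs and cyclins, RB and E2F genes and ubiquitin ligases, as colour from -2 (blue) to 2 (red), with asterisks on called changes. MDM2 at 24 h (2.94) lies beyond the colour limit; CCNB1 (-1.84), CCNB2 (-1.52), RBL2 (-1.51) and CDC27 (-1.32) are the darkest blue cells.

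Transcription and chromatin regulators of the inhibitor genes formed a list of 37, of which 33 were measured and the others were not analysed here. At 24 h 12 rose and 7 fell (median 0.07), against 15.2% and 17.2% of all genes, and at 8 h 8 rose and 7 fell, against 7.52% and 6.07%. MYC, which represses CDKN1A and CDKN2B, rose early, by 1.14 at 2 h, 1.57 at 4 h, 1.35 at 8 h and 2.14 at 24 h, each called. FOXO3, an activator of CDKN1B, rose by 0.56 at 4 h and 0.68 at 24 h, while FOXO1 was lower at 24 h by 0.57 (change -0.57, adjusted p 0.00649). ETS1, an activator of CDKN2A, rose by 1.93 at 24 h, and ID1, which opposes it, fell by 1.34 (change -1.34). KLF6, which activates CDKN1A, fell by 1.08 (change -1.08). EGR1 was lower by 1.87 at 4 h (change -1.87) and higher by 1.32 at 8 h and 1.03 at 24 h. EZH2 (0.38) and SP1 (0.36) rose at 24 h.

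Cells and RNA were checked beside these changes. Of 12 measured melanocyte markers, 9 had a mean above the median, among them SOX10 (mean signal 729), MITF (300.5) and PAX3 (368), while the pigment genes PMEL (24.4), MLANA (17.2) and TYRP1 (16.5) were below it. A mean above the median also held for 4 of 6 epithelial, 3 of 7 fibroblast, 2 of 4 blood and 1 of 4 endothelial markers. At 24 h 5 of the 12 melanocyte markers were called lower, S100B by the most (change -3.49), and 1 higher, against 17.2% and 15.2% of all genes. The summed signal of the 12 was 2613 to 2702 on MLN4924 arrays and 4057 to 4372 on DMSO arrays. The sum of 6 epithelial markers was 4790.3 to 5074 on MLN4924 and 2215 to 2358 on DMSO arrays, mainly through KRT18 (change 1.19), with EPCAM (10.7) and CDH1 (6.92) dim throughout. The sum of 7 fibroblast markers was 268 to 309 on MLN4924 and 450.2 to 502 on DMSO arrays. The sums of 4 blood markers (138 to 219.5 and 194 to 223) and of 4 endothelial markers (122 to 169 and 143 to 164) overlapped, and PTPRC was dim (10.9). The part of these shifts in the results was not tested. The 3′ to 5′ signal ratio of ACTB, a sign of RNA integrity, was 1.29 in both groups at 24 h and 1.36 with MLN4924 against 1.23 with DMSO at 8 h. The gap was widest at 2 h, where no member was called: 1.29 with MLN4924 against 1.56 with DMSO, whose arrays ran from 1.26 to 1.74. With that ratio as a covariate, 6 members were called at 8 h and 9 at 24 h, as without it.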

How the data were processed

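Total RNA from 30 samples was labelled with biotin and hybridized to 1 array each. The authors deposited 1 table of intensity values, linear signals per probe set, without raw images or detection calls. Per the submitters' processing notes the tool was Affymetrix Expression Console. A version, an algorithm and a genome build for it were not given in the sources used here. After trimming 2% at each end, the deposited intensity values averaged 150.02 on every array, so they had been scaled to a common mean. Array medians ran from 32.6 to 44. The number of arrays, 3 per group, limits the precision.

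Groups, times and replicate numbers came from the sample titles. Signals were quantile-normalized and taken as log2(signal + 32). The 62 control probe sets were then left out. limma 3.58.1 in R 4.3.3 estimated a mean for each group from the 30 arrays together (residual degrees of freedom 20, prior 2.99), with eBayes. The contrasts were the MLN4924 effect (against DMSO) at each time, the changes of that effect between consecutive times, and times within DMSO or MLN4924. A probe set was named only where it had 1 symbol (41097 did, 1801 had several), and each listed gene was represented by its probe set with the highest mean. The genes, the gene lists and the rule for named probe sets (every member probe set, with array values where it was called) were chosen with earlier results of these data known. Genes outside the members were printed as the larger called changes of each list, beside some not called, after their values were seen.

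In simulated data with the same groups at 24 h (54613 probe sets), changes of 0.5 were called in 25 of 60 cases (41.7%), of 1 in 79 of 80 (98.8%) and of 2 in 60 of 60. Of 169 calls 5 were false. Changes were given only to probe sets with a mean above the median, with independent normal noise. In the real data 12.2% of all probe sets were called higher and 12.6% lower at 24 h, so the adjustment was less strict there. The simulated shares are therefore not the sensitivity of the real comparison. The highest correlation between arrays of a group was 0.990, so no 2 arrays were taken for duplicates. Alternatives were other offsets, signals as deposited, median centring, a filter on dim probe sets, fewer arrays or probe sets, other settings of eBayes and of the adjustment, the ACTB ratio as covariate, replicate number as a block, and each array left out in turn.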

Additional observations from a re-analysis of the deposited data

Results flagged for a closer look

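4 results were marked because the MLN4924 effect differed between 2 times by a test of the difference itself (limma, Benjamini-Hochberg adjusted). The effect on CDKN1A grew by 1.73 from 4 to 8 h (SE 0.19, adjusted p 1.51e-05), from an uncalled difference below DMSO to a clear excess, and by 2.00 from 8 to 24 h (adjusted p 4.79e-08). The effect on CDKN1C, probe set 213348_at, changed by -1.66 from 4 to 8 h (SE 0.27, adjusted p 0.00251). The effect on CDKN1B changed by -0.56 from 8 to 24 h (SE 0.10, adjusted p 0.00043). Groups of 3 arrays are too small for the test for a stray array.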

How the results depend on the processing

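Of 39 called results on single probe sets, 31 kept direction and call in all of the 42 settings that applied to them; over 1555 alternatives, 48 calls were lost and none reversed. The member count called at 4 h (3) was 0 with log2(signal + 1) or with only the 6 arrays compared, 1 with log2(signal + 16), and 1 to 4 when 1 array was left out. Without the _x_at and _s_at probe sets, which leaves 7 members, the counts were 1 at 4 h, 2 at 8 h (6 in full), 3 at 24 h (9), 1 for the change from 4 to 8 h (2), 1 for the change from 8 to 24 h (2) and 3 within MLN4924 from 1 to 24 h (9), since CDKN1A, 3 of the CDKN1C probe sets, 209644_x_at and 210240_s_at drop out. The change from 4 to 8 h had 4 with the signals as deposited, with dim probe sets left out or with eBayes trend and robust, and 2 to 5 when 1 array was left out, 4 without MLN4924 2 h replicate 3 and 5 without MLN4924 8 h replicate 2. The cause was not tested. Counts with 1 probe set per gene were not run. In DMSO the rise of CDKN1B from 1 to 8 h (0.36, adjusted p 0.0186) was lost in 6 settings. Between arrays with equal replicate numbers, pooled over all groups, the mean correlation of deviations was 0.0006 (above 0.1 in 10 of 135 pairs). The correlations ran from -0.24 to 0.27. Pairing of DMSO with MLN4924 arrays at the same time was not tested. With the replicate number as a block, 2 members were called at 4 h, 6 at 8 h and 9 at 24 h. CDKN1B at 4 h was then not called (adjusted p 0.0551). Probe sets near or below the median signal (CDKN2B, 219533_at, 211156_at, 213586_at) limit what can be seen.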
